A study of Mus musculus with 39 samples.

Results

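C2C12 cells with a Flnc knockout (KO) were compared with wild-type (WT) C2C12 cells after 6 days of differentiation, across every gene with enough counts to test. C2C12 myoblasts are of mouse origin, and on low serum they stop dividing and fuse to form myotubes with many nuclei. The comparison used 8 of the study's 39 RNA-seq libraries, chosen by genotype and day alone: 4 WT and 4 KO libraries, carrying the replicate numbers 1, 3, 4 and 5 in each group. KO cells had been edited with CRISPR/Cas9 and a guide to the first exon of Flnc, and WT cells were the unedited line. Both lines were grown in 10% fetal bovine serum and then kept in 2% horse serum with fresh medium every day. The labels name a single KO line and do not say whether it is a clone, so differences between the lines that are unrelated to Flnc cannot be told apart from those of the knockout. They do not say whether the replicates are separate cultures either, so p-values measure the spread between these samples, which may be technical.

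Filamin C, the product of Flnc, is the muscle filamin. It crosslinks actin at the Z-disc, where thin filaments of neighbouring sarcomeres are anchored, and at junctions between the cell and its matrix, and it binds Z-disc proteins such as the Xin repeat proteins and myotilin. C2C12 myotubes build their first sarcomeres from embryonic and perinatal isoforms in the days after serum withdrawal, under MyoD, myogenin and MEF2 factors. Id proteins hold those basic helix-loop-helix factors in check in proliferating myoblasts.

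The 8 libraries held 6838281 to 15779125 counts each. None of them stood apart: the mean correlation with the other libraries of the same group was 0.961 to 0.973, and the first principal component of the 8, with 63.0% of the variance, separated the genotypes. Of the values above 0, 68.0% were even, so both mates of read pairs may have been counted, and the depth in fragments may be near 0.5 times these totals. Of the other cell types checked, 5 of the 12 endothelial and blood markers had no count in any of the 8 libraries (Adgre1, Cd3e, Cdh5, Hbb-bs and Ptprc). The same held for 4 of 16 fibroblast, 4 of 10 adipocyte and 3 of 12 cartilage and bone markers. It also held for 1 of 10 smooth muscle and pericyte and 2 of 12 neural and Schwann markers. Of all 29980 genes counted, 13051 had no count at day 6, so these zeros do not show that a cell type was absent. Levels below are in CPM, the count of a gene scaled to the same TMM-adjusted library size for all samples, as mean ± SD over 4 libraries. Differences are log2, KO minus WT, from edgeR's quasi-likelihood fit, with the standard error (SE) of the difference between group means of log2 CPM. Genes are named as called where the p adjusted by Benjamini-Hochberg over the 13780 genes tested lay under 0.05. These are bulk samples, so fewer myotubes and less RNA per myotube cannot be told apart in any of the values.

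Flnc RNA was low in each library labelled KO. Flnc (ENSMUSG00000068699; GRCm38 chromosome 6, 29433256 to 29461883, plus strand) was at 1691, 1984, 1362 and 1520 CPM in WT replicates 1, 3, 4 and 5 and at 110, 147, 94.9 and 119 CPM in the KO replicates of the same numbers. KO libraries held 7.20% of the WT mean, a difference of -3.80 ± 0.18 (SE, n = 4 and 4, adjusted p = 1.71e-09), and the 2 groups did not overlap. An exact two-sided permutation test gave p = 0.0286, the smallest that 4 against 4 libraries allow. Flna, which encodes the broadly expressed filamin A, was higher in all KO libraries (from 415 CPM ± 165 to 1178 ± 224; 1.5 ± 0.31, adjusted p = 0.00174).

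Both groups expressed the genes of differentiating muscle. Of the 9 markers set for myotubes, all had counts in each of the 8 libraries. Myh3 and Mymk, and the myosin light chain Myl1 (2358 CPM ± 971 in WT and 721 ± 213 in KO; -1.71 ± 0.37), were called lower in the KO. Des, which encodes the muscle intermediate filament desmin, overlapped at 3196 ± 826 and 2580 ± 250 CPM (-0.31 ± 0.19, adjusted p = 0.523), and so did Ckm, muscle creatine kinase, at 278 ± 98.9 and 179 ± 93.6 CPM. Myl1 was not called without KO replicate 4 (adjusted p = 0.0816) or WT replicate 5 (0.0852). The remaining 4, Myog, Acta1, Ttn and Tnnt3, had every KO library below every WT library and missed the threshold. When the 8 libraries of day 6 were fitted by themselves, which estimates the spread without the other days, these 4 were called (adjusted p = 0.00257, 0.00283, 0.00111 and 0.00308).

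Over all genes, 1997 were called higher and 1983 lower in the KO, which is 28.9% of the genes tested (14.5% higher and 14.4% lower). Among the genes called, 1287 of the higher and 1362 of the lower differed by at least 1 on the log2 scale, and 154 and 261 by at least 5. The median over all genes tested was 0.02. All 4 KO libraries lay above all 4 WT libraries for 2328 genes (16.9%) and below them for 2299 (16.7%). The plot of all genes shows the called genes at every level of expression.

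**Figure D1:**
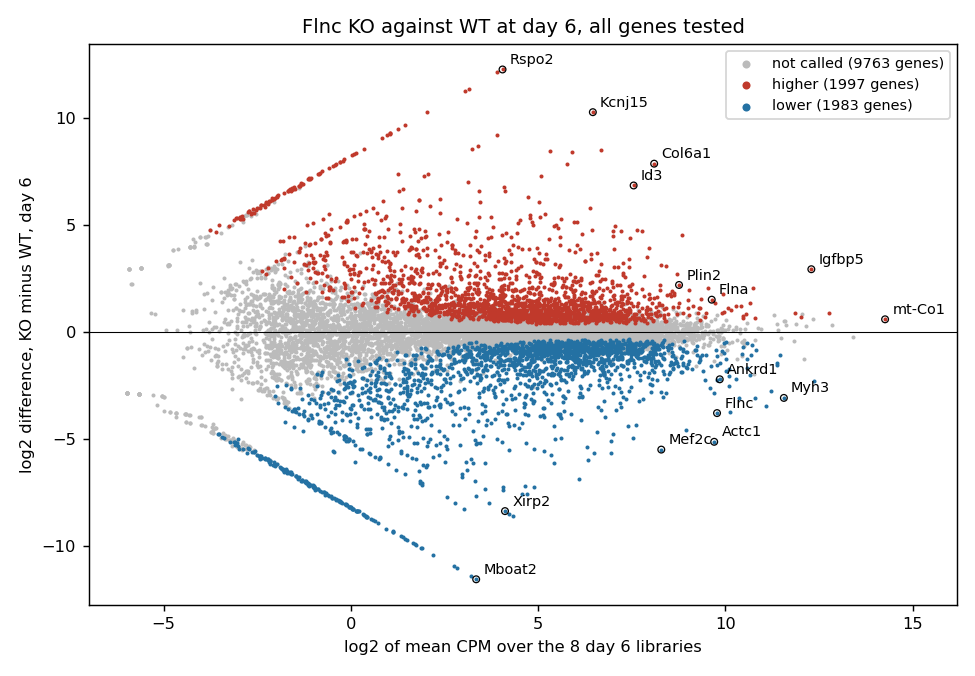
Log2 difference between KO and WT at day 6 (vertical) against the log2 of the mean CPM over the 8 libraries (horizontal), 1 point per gene, with 1997 genes called higher in red, 1983 lower in blue and 9763 not called in grey. The straight edges at top and bottom are genes with 0 counts in a group, and 37 genes without a count at day 6 are not drawn.

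Several genes had counts in 1 genotype and none in the other. Rspo2, which encodes the R-spondin 2 ligand of the Wnt pathway, had 0 counts in all WT libraries and 62.8, 22.0, 22.8 and 24.9 CPM in the KO, which with a floor of 3 counts for the whole WT group is a difference of at least 472-fold higher. On the same floor Inmt, a methyltransferase gene, was at least 528-fold higher (30.1 CPM ± 27.3 in KO), Magea6 at least 265-fold (16.4 ± 7.71) and Iigp1, an interferon-inducible GTPase, at least 234-fold (17.8 ± 15.7). The Inmt bound was 297-fold without KO replicate 5, and the Iigp1 bound 150-fold without KO replicate 1. In the other direction Mboat2, a lysophospholipid acyltransferase gene, was at 20.3 CPM ± 3.41 in WT, while no KO library held a count of it (at least 275-fold lower). No KO library held a count of Colec10, Gja5, the connexin 40 gene, or Tnik either, which makes them at least 213-fold, 196-fold and 161-fold lower. Counting mates separately would make each of these bounds 0.5 times its size. Magea6 has near-identical copies among which reads may be split.

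Other large differences had counts in both groups. The potassium channel genes Kcnj15 and Kcnj16 were at 0.157 CPM ± 0.238 and 0.0317 ± 0.0634 in WT and at 176 ± 62.7 and 29.8 ± 6.62 in the KO, and Kcnj15 differed by 10.27 ± 0.64 (adjusted p = 5.22e-13). Rhox5, a homeobox gene of the X chromosome, rose from 0.313 ± 0.32 to 120 ± 38.4 CPM, and Cntn3, a contactin gene, from 0.217 ± 0.296 to 79.8 ± 42.0. Kcnj16 rested on 2 WT counts, as did Gsta3, a glutathione S-transferase, and their KO to WT ratios were 724 (95% counting interval 200 to 5982) and 462 (128 to 3822). With the counts halved, as if mates had been counted separately, the intervals were 129 to 28626 and 82.4 to 18272. Lower in the KO were Kcnn3, a calcium-activated potassium channel (40.5 ± 16.3 to 0.109 ± 0.133 CPM), Atp6v1c2, a proton pump subunit (37.5 ± 7.1 to 0.0818 ± 0.164), and Tmem117 (20.2 ± 6.52 to 0.0741 ± 0.0865). Il15, a cytokine made by muscle, fell from 25.8 ± 14.4 to 0.0818 ± 0.164 CPM. Itm2a and Chmp4c, an ESCRT-III subunit, had 2 counts left in the KO, and their WT to KO ratios were 299 (82.5 to 2475) and 282 (77.6 to 2331), or intervals of 53.3 to 11847 and 50.3 to 11177 with halved counts.

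Genes of the sarcomere were lower as a group. The 4 lists of sarcomeric myosins, thin filament, titin and M-band, and Z-disc with filamin C partners held 73 tested genes, of which 44 were called lower and 2 higher, with a median of -1.61 against 0.02 over all genes. Together they took 6.51% ± 0.839 of all counts in WT and 2.10% ± 0.460 in the KO, and the groups did not overlap (exact two-sided permutation p = 0.0286). Another 13 of the 73 were lower in all KO libraries without passing the threshold, and 27 were not called in all. The plot of gene lists sets these beside the other lists.

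**Figure D2:**
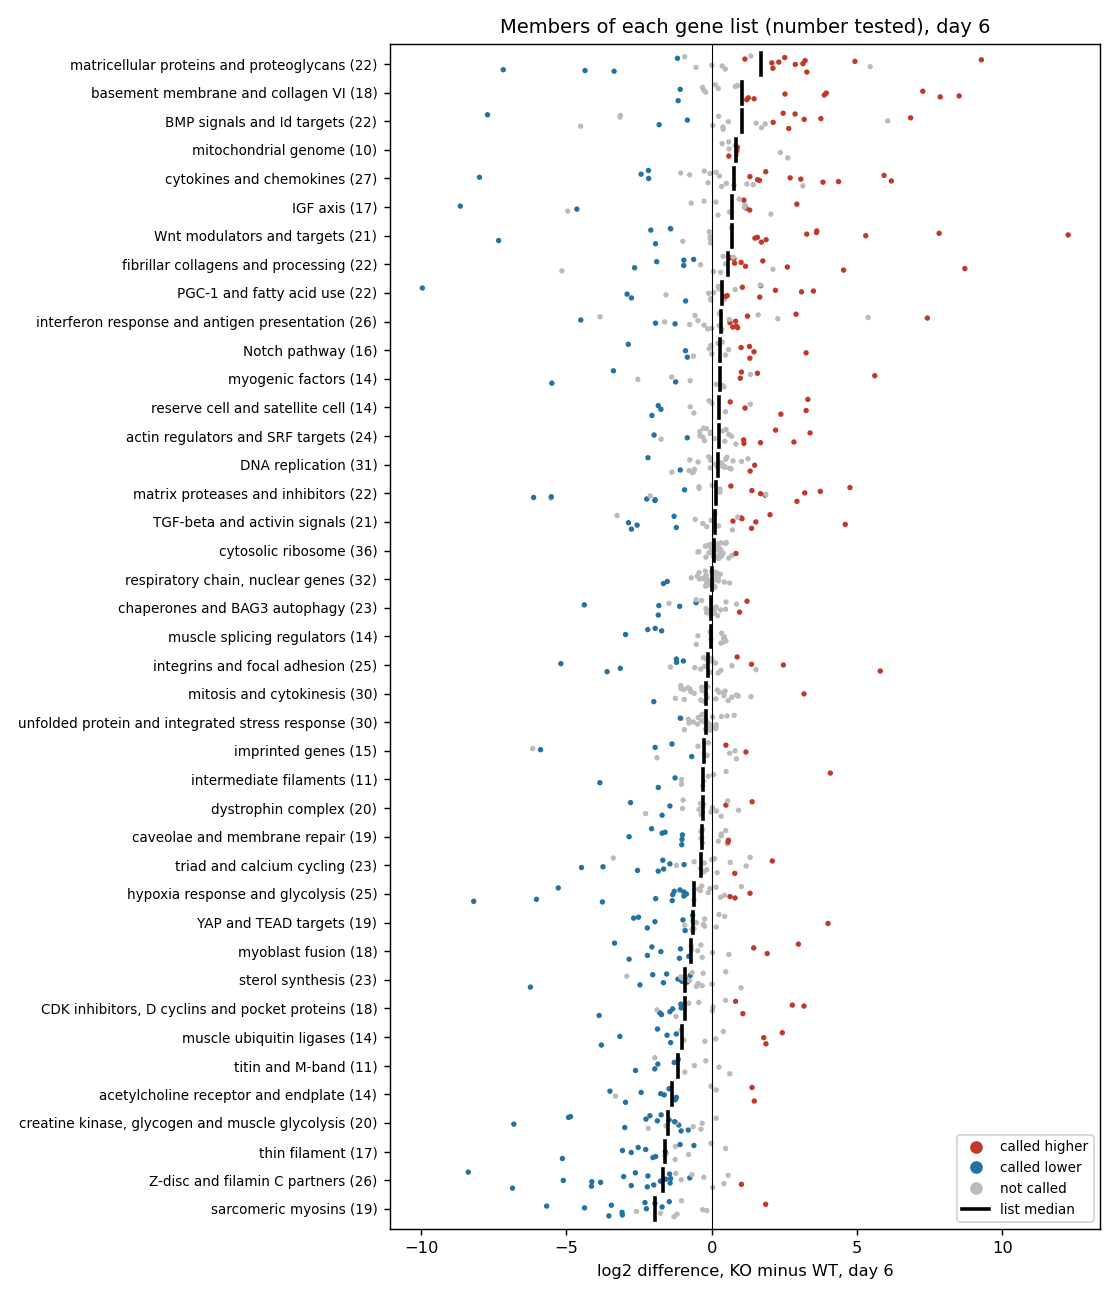
Log2 difference between KO and WT at day 6 (horizontal) for the tested members of each gene list (rows, ordered by median, number tested in brackets); each point is a gene, red where called higher, blue lower, grey not called, and the black bar is the list median. The 4 sarcomere lists have medians of -1.96 to -1.15, and the matricellular list, at 1.71, the highest median.

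Among the motor proteins, 11 of 19 sarcomeric myosin genes were lower and 1 higher (median -1.96). Myh3, the embryonic myosin heavy chain, was at 5804, 6463, 4106 and 5306 CPM in WT and 521, 973, 435 and 622 in the KO (-3.09 ± 0.29, adjusted p = 0.00627). The highest KO library lay far below the lowest WT library. The perinatal heavy chain Myh8 fell from 324 ± 131 to 15.7 ± 7.74 CPM (-4.38 ± 0.48), the embryonic light chain Myl4 from 4016 ± 560 to 366 ± 155 (-3.46 ± 0.34), and the regulatory light chains Mylpf and Myl2 by 2.30 ± 0.42 and 5.68 ± 0.71 on the log2 scale. Mybph, a myosin-binding protein, fell by 3.08 ± 0.25. The adult fast chains Myh1 (568 ± 262 and 248 ± 70 CPM, adjusted p = 0.296) and Myh4 (49.9 ± 34.9 and 8.26 ± 6.78, adjusted p = 0.0594) were lower in all KO libraries and not called, although both were in the fit restricted to day 6 (adjusted p = 0.0106 and 0.00935). Myh4 was also called in edgeR with replicate number as a block over all libraries (adjusted p = 0.00187) and with halved counts (0.0346). Beyond these and the fits restricted to day 6, the other settings did not call Myh4. The member that rose was Mylk2, the skeletal myosin light chain kinase, at 26.4 ± 10.6 and 95.2 ± 32.3 CPM (1.85 ± 0.41).

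The thin filament list had 10 of 17 genes lower and 0 higher. Actc1, cardiac alpha actin, which embryonic skeletal muscle also uses, was at 1434, 1957, 1968 and 1124 CPM in WT and 33.5, 63.5, 21.8 and 65.4 in the KO (-5.14 ± 0.43, adjusted p = 1.52e-06). Acta1, skeletal alpha actin, was at 4538, 5769, 6394 and 8242 CPM in WT and 2145, 3133, 1550 and 3600 in the KO. The Acta1 groups did not overlap, and the difference of -1.26 ± 0.33 was not called (adjusted p = 0.0863). DESeq2 called Acta1 (adjusted p = 0.0472), as did the fits restricted to day 6, and the other settings did not. Among the troponins, the slow and embryonic genes differed most: Tnni1 fell by 3.07 ± 0.40, the slow and cardiac troponin C gene Tnnc1 by 2.77 ± 0.34 and Tnnt2, cardiac troponin T, fell by 2.53 ± 0.35. The fast troponin T gene Tnnt3 was at 1805 ± 651 and 759 ± 225 CPM and was not called (-1.25 ± 0.34, adjusted p = 0.102). Tpm2, beta tropomyosin, fell by 1.09 ± 0.22.

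The promoters of 4 of these genes are shown because the genes fell together and because their factors, MyoD, myogenin, MEF2 and SRF, are among the genes measured. Each line gives the 250 bases before the start of the RefSeq transcript (GRCm38.p6), 5′ to 3′ on the strand of the gene: Myh3 at chr11:67078050-67078299 (plus), Tnnt2 at chr1:135836084-135836333 (plus), Tnni1 at chr1:135799171-135799420 (plus) and Actc1 at chr2:114052876-114053125 (minus). Capitals mark E-boxes, written CANNTG, in the first 3 genes and a CArG box, the serum response factor motif, in Actc1.
Myh3: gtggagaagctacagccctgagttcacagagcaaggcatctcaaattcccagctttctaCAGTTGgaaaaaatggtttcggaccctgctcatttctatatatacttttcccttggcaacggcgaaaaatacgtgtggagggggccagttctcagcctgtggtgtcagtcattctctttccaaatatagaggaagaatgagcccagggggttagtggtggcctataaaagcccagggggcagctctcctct
Tnnt2: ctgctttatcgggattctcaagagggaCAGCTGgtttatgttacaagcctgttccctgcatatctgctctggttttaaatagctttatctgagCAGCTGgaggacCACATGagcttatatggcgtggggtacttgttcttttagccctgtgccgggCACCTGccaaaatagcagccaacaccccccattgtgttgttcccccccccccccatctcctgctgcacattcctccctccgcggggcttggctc
Tnni1: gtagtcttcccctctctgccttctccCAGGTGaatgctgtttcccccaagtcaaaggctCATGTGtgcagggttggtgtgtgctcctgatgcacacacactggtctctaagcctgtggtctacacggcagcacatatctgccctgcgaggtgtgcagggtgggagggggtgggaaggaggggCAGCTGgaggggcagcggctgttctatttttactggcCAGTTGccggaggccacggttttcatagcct
Actc1: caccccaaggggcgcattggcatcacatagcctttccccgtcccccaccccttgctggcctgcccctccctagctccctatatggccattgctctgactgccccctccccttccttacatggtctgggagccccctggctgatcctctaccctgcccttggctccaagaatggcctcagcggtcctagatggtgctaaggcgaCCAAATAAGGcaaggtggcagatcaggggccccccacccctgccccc

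Myh3 held 1 E-box, whose first base is 191 bases before the start, and Tnnt2 and Tnni1 held 4 each, at 223, 157, 145 and 94 bases and at 224, 191, 68 and 31 bases. The Actc1 CArG box, CCAAATAAGG, lies 47 bases before the start. Across genes, CANNTG was in the 250 bases before the start of 56.9% of the 10509 tested genes with a RefSeq promoter, of 58.7% of those called higher and of 61.7% of those called lower. Of the 38 sarcomere genes called lower that had a promoter, 32 held it (84.2%), and 14 held the E-box CAGCTG, which CANNTG includes (36.8%, against 12.1% of all). The MEF2 site was in 18.4% of those 38 and 1.81% of all, with both strands searched. A separate pattern, with only the 3 outer bases on each side fixed, was in 15.8% and 2.80%. That pattern was in fewer of the 38 than the MEF2 site, so it does not cover every MEF2 site and is not its loose form. The bases of the MEF2 site searched are not given here. The CArG box was in 2 of the 38 (5.26%), in 1.21% of all genes called lower and in 1.26% of all genes tested. The loose form of the CArG box, with only the CC and GG ends fixed, was in 71.1% of the 38 and 81.0% of all, so it was less frequent among the sarcomere genes. These shares describe letters in a window, and no binding was measured here.

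At the Z-disc, 18 of 26 genes were lower and 1 higher (median -1.67), and partners of filamin C were among them. Xirp1 and Xirp2 encode the Xin proteins, which bind filamin C at developing Z-discs. Xirp1 was at 224, 269, 210 and 274 CPM in WT and 40.1, 45.0, 30.3 and 42.7 in the KO (-2.63 ± 0.16, adjusted p = 1.25e-05), and Xirp2 fell from 34.6 ± 20.1 to 0.11 ± 0.136 CPM. Actn2, the muscle alpha-actinin that crosslinks actin at the Z-disc, fell from 134 ± 26.9 to 1.20 ± 0.546 CPM (-6.86 ± 0.43), and Myoz2, a calcineurin-binding Z-disc protein, from 238 ± 83.5 to 6.90 ± 3.33 (-5.11 ± 0.43). Ankrd1, an ankyrin repeat protein of the titin I-band and a target of YAP, was at 1539, 1476, 1331 and 1738 CPM in WT and 268, 388, 346 and 306 in the KO (-2.22 ± 0.14, adjusted p = 1.81e-08). The Z-disc scaffold genes Ldb3 and Nrap fell by 1.43 ± 0.24 and 1.59 ± 0.22, and Synpo2l by 1.45 ± 0.14. Of the titin and M-band list, 5 of 11 were lower and 0 higher, with Myom2 and Myom3, the M-band myomesins, down by 2.62 ± 0.27 and 1.96 ± 0.21. Titin itself, Ttn, was at 3116, 4626, 1640 and 1787 CPM in WT and 1149, 729, 571 and 427 in the KO. The groups did not overlap, and Ttn was not called (-1.96 ± 0.46, adjusted p = 0.0784). It was called in edgeR with replicate number as a block over all libraries (adjusted p = 0.029) and in the fits restricted to day 6. The other settings did not call Ttn.

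**Figure D3:**
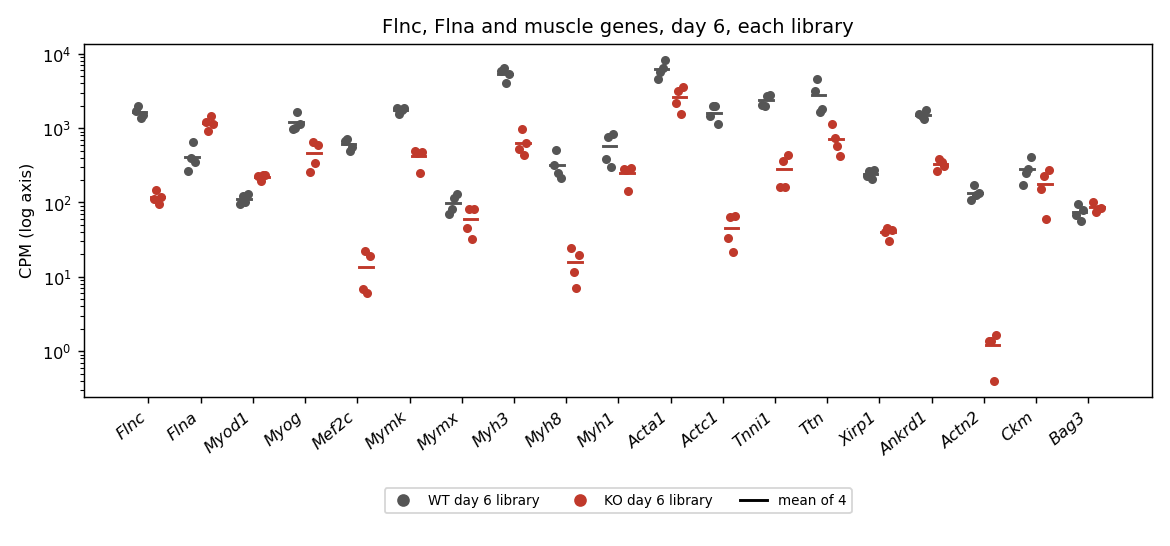
Level of 19 genes, Flnc, Flna and muscle genes, at day 6 (CPM, log axis): each point is a library, grey for WT and red for KO, and each bar the mean of 4. All KO libraries lie below all WT libraries for Mef2c, Myh8, Actc1 and Actn2, and the groups overlap for Ckm and Mymx.

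The myogenic transcription factors did not all move the same way. Of 14 myogenic factors, 4 were called higher and 3 lower (median 0.27). Myod1, the myoblast-determining factor, was at 95.9, 124, 100 and 131 CPM in WT and 224, 195, 235 and 235 in the KO, higher in each KO library (0.98 ± 0.13, adjusted p = 0.000785). Six4, a homeobox factor that acts with MyoD, rose by 1.02 ± 0.15. Myog, myogenin, was at 971, 992, 1674 and 1149 CPM in WT and 254, 654, 339 and 591 in the KO. It was lower in each library and just outside the threshold (-1.38 ± 0.37, adjusted p = 0.0588). DESeq2 called Myog (adjusted p = 0.0315), as did edgeR with replicate number as a block over all libraries (0.0202) and with halved counts (0.0483). Apart from these and the fits restricted to day 6, the other settings did not call it. The largest called decrease was in Mef2c (ENSMUSG00000005583; chromosome 13, 83504034 to 83667080, plus strand), at 679, 707, 500 and 564 CPM in WT and 6.94, 22.3, 5.98 and 19.0 in the KO (-5.50 ± 0.50, adjusted p = 3.04e-09). Mef2c in the KO stood at 2.21% of its WT mean. Mef2d fell by 1.24 ± 0.17 and Vgll2, a cofactor of TEAD and MEF2, by 3.38 ± 0.36. Myf5 overlapped (56.7 ± 11.6 and 34.0 ± 18.1 CPM), and Myf6 was at most 1.26 CPM in any library.

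Fusion genes were mixed, with 8 of 18 lower and 3 higher, beside 14.4% and 14.5% of all genes. Mymk encodes myomaker, a membrane protein that myoblasts need to fuse. Mymk was at 1875, 1535, 1768 and 1844 CPM in WT and 486, 461, 251 and 484 in the KO (-2.06 ± 0.24, adjusted p = 0.00131). Its partner Mymx, myomixer, overlapped between the groups at 98.5 ± 27.0 and 60.3 ± 25.1 CPM and was not called (-0.71 ± 0.39, adjusted p = 0.303). The adhesion genes Cdh2, N-cadherin, Cdh15, M-cadherin, and Itga7, the laminin receptor subunit, fell by 2.21 ± 0.19, 0.79 ± 0.11 and 1.75 ± 0.14, and the tetraspanin gene Cd81 by 1.11 ± 0.08. Dock5, a Rac exchange factor, rose from 26.0 ± 4.59 to 97.8 ± 17.4 CPM (1.91 ± 0.19).

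Genes of the membrane systems of the myotube were lower more often than higher, where 14.4% of all genes were called lower and 14.5% higher. At the triad, where voltage sensing meets calcium release, 8 of 23 genes were lower and 2 higher: Casq2, a calsequestrin that stores calcium, fell from 2086 ± 121 to 156 ± 59.4 CPM (-3.74 ± 0.29), the calcium channel subunit genes Cacna1s and Cacnb1 by 2.56 ± 0.34 and 1.66 ± 0.20, and Bin1 and Jph2, which shape T-tubules and join them to the store, by 1.84 ± 0.20 and 1.44 ± 0.13. Ryr3, a calcium release channel, rose by 2.08 ± 0.29. Of 14 acetylcholine receptor and endplate genes, 9 were lower and 2 higher (median -1.37). The receptor subunits Chrna1, Chrnb1, Chrnd and Chrng fell by 1.26 ± 0.16, 1.24 ± 0.17, 1.22 ± 0.27 and 1.64 ± 0.35, Dok7, an adaptor of the receptor kinase MuSK, by 2.43 ± 0.43, and the neuregulin receptor Erbb3 by 3.50 ± 0.34. Agrn, which encodes the MuSK-activating proteoglycan agrin, rose from 15.0 ± 4.38 to 41.6 ± 2.44 CPM (1.46 ± 0.21).

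Genes of the cytoskeleton and its attachments were called in both directions. In the dystrophin complex 3 of 20 genes were lower and 2 higher, a share near the 28.9% called over all genes, with the syntrophins in opposite directions: Sntb1 fell by 2.79 ± 0.47 and Sntb2 rose by 1.39 ± 0.18. Among 25 integrin and focal adhesion genes, 6 were lower and 4 higher, beside 14.4% and 14.5% of all genes. The laminin receptor subunit Itga6 fell from 399 ± 122 to 45.1 ± 10.8 CPM (-3.15 ± 0.28), Lims2 (PINCH2) by 5.19 ± 0.76 and Parvb (beta-parvin) by 1.21 ± 0.11, while Itgb8 rose by 2.47 ± 0.32. Non-muscle and smooth muscle actin genes were higher: Actb rose from 685 ± 44.9 to 1478 ± 118 CPM (1.11 ± 0.07), Actg1 from 178 ± 44.0 to 571 ± 89.5 (1.68 ± 0.21) and Actg2 from 4.64 ± 4.02 to 34.1 ± 9.98 (2.83 ± 0.55). Of the whole list of actin regulators and serum response factor targets, 6 of 24 were higher and 2 lower, a share near the 28.9% of all genes. Also up were Myl9 (3.38 ± 0.45) and Cald1 (1.10 ± 0.13), and Myh10, non-muscle myosin IIB, was down (-1.98 ± 0.32). Of 19 caveolar and membrane repair genes 7 were lower and 2 higher, beside the same shares of all genes, 14.4% and 14.5%. Of 11 intermediate filament genes 3 were lower and 1 higher, beside 28.9% of all genes called. Of 19 YAP and TEAD genes 7 were lower and 1 higher, with Tead4 at -2.69 ± 0.27 and Vgll3 at -2.52 ± 0.35, and F3, tissue factor, at 4.00 ± 0.86.

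Filamin C is cleared by BAG3-dependent autophagy, and chaperone genes were examined for that reason. Bag3 overlapped, at 68.7, 94.9, 56.0 and 78.9 CPM in WT and 103, 74.7, 82.3 and 84.4 in the KO (0.21 ± 0.19, adjusted p = 0.489). The small heat shock genes Cryab (1058 ± 165 to 296 ± 45.2 CPM; -1.84 ± 0.16) and Hspb2 (-1.82 ± 0.16) fell, and the autophagy receptor Sqstm1 (1.21 ± 0.17) and Gabarapl1 (0.96 ± 0.15) rose. The counts over the list were 5 of 23 lower and 2 higher, a share near the 28.9% called over all genes. Of 14 muscle ubiquitin ligase genes, 6 were lower and 3 higher. Fbxo32, atrogin-1, which is induced in muscle wasting, rose from 112 ± 20.9 to 388 ± 62.3 CPM (1.79 ± 0.19), and Fbxo40 and Asb5 fell by 3.16 ± 0.51 and 1.41 ± 0.14. Of 30 genes of the unfolded protein and integrated stress responses, 1 was called, Ppp1r15a (-1.08 ± 0.26, adjusted p = 0.0441), against 28.9% over all genes. That call was lost without any 1 of 7 of the 8 libraries (adjusted p = 0.158 without WT replicate 4). All KO libraries lay below all WT libraries for 7 of the 30 genes and above them for 1, beside 16.7% and 16.9% of all genes. Further members of the list, not named here, were called lower in edgeR's fit restricted to day 6 (adjusted p = 0.000803, 0.000562 and 0.0019).

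Genes of the extracellular matrix were higher in the KO more often than lower. Collagen VI, a network of the muscle endomysium, was among the matrix genes that differed. Col6a1 (ENSMUSG00000001119; chromosome 10, 76708792 to 76726168, minus strand) was at 3.02, 1.10, 4.69 and 0.241 CPM in WT and 328, 624, 604 and 630 in the KO (7.86 ± 0.87, adjusted p = 1.55e-08). Col6a2 rose from 0.489 ± 0.481 to 203 ± 80.5 CPM and Col6a3 from 8.88 ± 2.02 to 131 ± 28.6 (3.87 ± 0.23), so all 3 chains that form the classical heterotrimer were higher in each KO library. In all, 9 of 18 basement membrane and collagen VI genes were higher and 2 lower (median 1.05), with the laminin chain Lama4 at 0.387 ± 0.394 and 66.7 ± 30.8 CPM.

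Of 22 fibrillar collagen and processing genes, 9 were higher and 5 lower. Col12a1, a fibril-associated collagen, rose from 38.1 ± 20.6 to 886 ± 211 CPM (4.54 ± 0.51), Col1a2 from 64.3 ± 7.35 to 390 ± 33.5 (2.60 ± 0.11) and Col3a1 from 240 ± 69.6 to 538 ± 110 (1.16 ± 0.29). Col1a1, the partner of Col1a2 in type I collagen, went the other way, at 2.95 ± 0.266 CPM in WT and 0.426 ± 0.189 in the KO (-2.66 ± 0.26, adjusted p = 0.0215). Without KO replicate 3 Col1a1 was not called (adjusted p = 0.0515). Col15a1 had 2 counts in WT and 953 in the KO, a ratio of 534 (counting interval 147 to 4414, or 95.2 to 21104 with halved counts). The matricellular and proteoglycan list had 11 of 22 genes higher and 4 lower (median 1.71), and its small leucine-rich proteoglycans split. Ogn, osteoglycin, rose from 662 ± 242 to 2773 ± 653 CPM (2.07 ± 0.30), whereas Dcn, decorin, fell from 375 ± 192 to 18.5 ± 23.2 (-4.36 ± 0.98) and Bgn, biglycan, from 45.4 ± 29.4 to 4.37 ± 2.22 (-3.36 ± 0.66). Postn, periostin, was at 18.6, 5.34, 1.39 and 9.17 CPM in WT and 115, 378, 171 and 362 in the KO (4.93 ± 0.88). Thbs2, a thrombospondin, rose by 2.51 ± 0.14, and the calcification inhibitor Mgp rose by 3.14 ± 0.65.

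Matrix proteases and their inhibitors were called in both directions. Mmp14, the membrane-bound collagenase, rose from 74.8 ± 15.9 to 240 ± 32.1 CPM (1.68 ± 0.17), and the protease inhibitor Serpine2 from 14.2 ± 8.74 to 387 ± 131 (4.76 ± 0.48). The ADAMTS-like genes Adamtsl1 and Adamtsl2 fell by 6.13 ± 0.48 and 5.52 ± 0.30. Over the list, 8 of 22 were higher and 6 lower. Sdc2, the cell surface heparan sulfate proteoglycan syndecan 2, rose from 440 ± 63.4 to 1522 ± 275 CPM (1.79 ± 0.17).

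**Figure D4:**
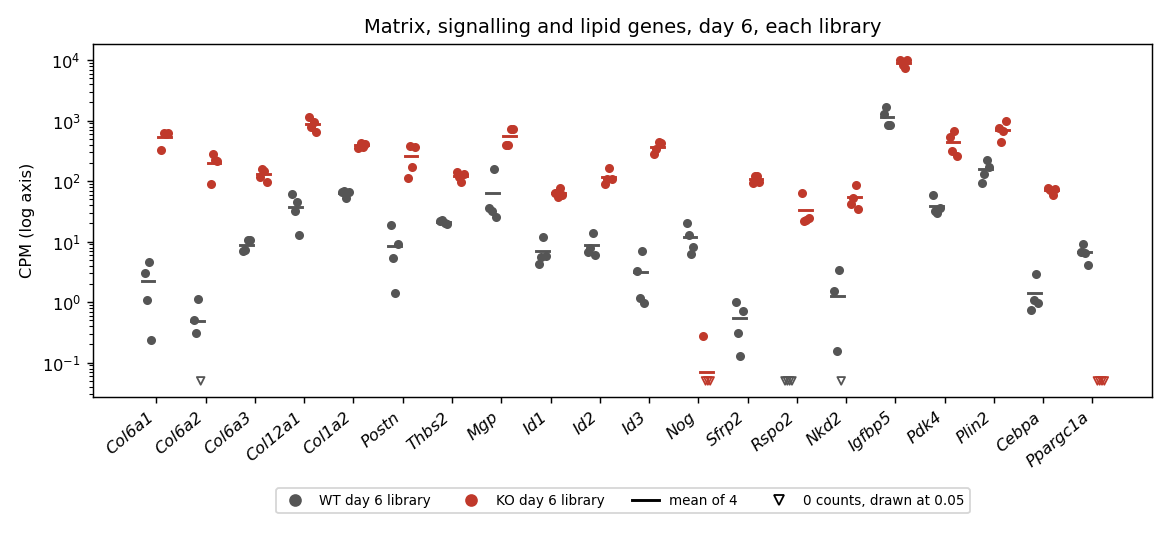
Level of 20 matrix, signalling and lipid genes at day 6 (CPM, log axis): each point is a library, grey for WT and red for KO, each bar the mean of 4, and open triangles libraries with 0 counts, drawn at 0.05. All 3 collagen VI genes and Id1, Id2 and Id3 are higher in each KO library, and Nog and Ppargc1a lower.

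Id genes were higher and the BMP antagonist noggin lower. Id1, Id2 and Id3 are direct BMP targets that block MyoD-family factors. Id3 (ENSMUSG00000007872; chromosome 4, 136143497 to 136145755, plus strand) was at 3.27, 1.18, 7.10 and 0.965 CPM in WT and 277, 339, 448 and 425 in the KO (6.84 ± 0.66, adjusted p = 4.15e-10). Id2 rose from 8.70 ± 3.70 to 119 ± 32.6 CPM (3.75 ± 0.33, adjusted p = 3.49e-11) and Id1 from 6.91 ± 3.41 to 63.6 ± 9.27 (3.18 ± 0.33). Bmp4, a ligand, rose from 3.49 ± 1.31 to 22.3 ± 9.67 CPM and the inhibitory Smad6 from 1.16 ± 0.274 to 8.44 ± 3.55. Nog, the antagonist noggin, had 492 counts in WT and 2 in the KO, a ratio of 220 (counting interval 60.5 to 1818, or 39.1 to 8709 with halved counts). Over the list, 7 of 22 were higher and 3 lower (median 1.05). In WT cells Id3 RNA had been 233 CPM ± 107 on day 0 and 2.60 ± 1.5 on day 4, and in KO cells it was 615 ± 133 and 444 ± 134.

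The other signalling lists were divided, where 14.5% of all genes were called higher and 14.4% lower. Of 21 TGF-beta and activin genes, 7 were higher and 5 lower: the activin subunit Inhbb rose from 5.56 ± 3.72 to 137 ± 36.0 CPM (4.59 ± 1.12) and the receptor Tgfbr1 by 2.00 ± 0.17, and Fst, the activin and myostatin antagonist follistatin, fell from 300 ± 131 to 44.1 ± 13.9 (-2.76 ± 0.41). Of 21 Wnt modulators and targets, 10 were higher and 4 lower (median 0.68). Sfrp2, a secreted Wnt binder, rose from 0.542 ± 0.397 to 109 ± 15.5 CPM (7.83 ± 0.51), Nkd2, an inhibitor of Dishevelled, by 5.30 ± 1.19 and the nuclear effector Tcf7l2 by 3.62 ± 0.28. In the Notch pathway 5 of 16 were higher and 3 lower, with the target Heyl up by 3.25 ± 0.64. Hepatocyte growth factor, Hgf, which activates muscle stem cells, rose from 4.45 ± 3.44 to 29.9 ± 8.57 CPM (2.7 ± 0.52), and the chemokine Cxcl12 and its receptor Cxcr4 by 4.36 ± 0.72 and 2.38 ± 0.25. Cytokines and chemokines were higher for 10 of 27 genes and lower for 4. Interferon and antigen presentation genes were higher for 8 of 26 and lower for 3.

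Igfbp5, a secreted binder of insulin-like growth factors that myoblasts release as they differentiate, was among the 10 called genes with the largest gain in CPM. Igfbp5 was at 1306, 1673, 843 and 856 CPM in WT and 9898, 8313, 7319 and 10069 in the KO (2.93 ± 0.27, adjusted p = 5.03e-07). The 17 genes of the axis took 0.184% ± 0.0506 of counts in WT and 1.03% ± 0.136 in the KO. Igfbp5, at means of 1170 and 8900 CPM, held most of both shares, and 11 of the 17 genes were not called. Igfbp3 had no count in the KO and was at least 40.5-fold lower (20.9-fold without WT replicate 4). In all, 4 of the 17 genes were higher and 2 lower, beside 28.9% of all genes called. Of 15 tested imprinted genes, 4 were lower and 2 higher, beside 14.4% and 14.5% of all genes. Mest, an imprinted gene of mesoderm, had 147 counts in WT and 2 in the KO, a ratio of 65.6 (counting interval 17.8 to 547, or 11.5 to 2644 with halved counts).

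Markers of quiescent or uncommitted myoblasts were mixed. Of 14 reserve and satellite cell genes, 5 were higher and 3 lower, beside 14.5% and 14.4% of all genes. Vcam1, an adhesion receptor of satellite cells, was at 14.6, 13.2, 16.1 and 12.1 CPM in WT and 127, 115, 145 and 167 in the KO (3.31 ± 0.15, adjusted p = 6.5e-09), and Heyl and Cxcr4, given above, also rose. Ncam1, Itga7 and Cd34 fell by 1.84 ± 0.21, 1.75 ± 0.14 and 2.06 ± 0.39. The summed level of the whole list was 2322 to 2654 CPM in WT and 1330 to 1444 in the KO, so it was lower in each KO library. Itga7 (a mean of 1626 CPM in WT and 510 in the KO) and Ncam1 (487 and 143) held most of that sum, and the other 14 members together were higher in each KO library (285 to 421 CPM in WT, 646 to 788 in the KO). Itga7 and Ncam1 were set apart after their values were seen. Both fell in the KO, so the sum of the rest describes a selected set.

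Genes of cell cycle exit were called more often than those of replication and mitosis. Cdkn1a, the inhibitor p21 that rises as myoblasts withdraw from the cycle, was at 4108, 4080, 4067 and 3329 CPM in WT and 1600, 1555, 1162 and 1430 in the KO (-1.44 ± 0.13, adjusted p = 0.000584). The D cyclins Ccnd2 and Ccnd3 fell from 65.4 ± 23.4 to 4.59 ± 3.79 CPM (-3.87 ± 0.54) and from 602 ± 106 to 182 ± 22.7 (-1.73 ± 0.15), and Gas1, a growth arrest gene, rose from 20.3 ± 9.79 to 184 ± 35.3 (3.17 ± 0.53). Of that list, 7 of 18 were lower and 4 higher. Of 31 DNA replication genes 2 were higher and 2 lower, and of 30 mitosis genes 1 was higher and 1 lower (28.9% of all genes were called). The replication genes took 0.0650% ± 0.00305 of counts in WT and 0.0570% ± 0.00350 in the KO (exact p = 0.0286), and the mitosis genes 0.0152% ± 0.00728 and 0.0129% ± 0.00471 (exact p = 0.629). Rrm2, the ribonucleotide reductase subunit, fell by 2.19 ± 0.20, and Mcm4, a subunit of the replicative helicase, rose by 1.48 ± 0.22.

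Genes of muscle fuel use were lower, and few nuclear genes of the respiratory chain were called. Of 20 genes of creatine kinase, glycogen and muscle glycolysis, 13 were lower and 0 higher (median -1.52). Pfkm, muscle phosphofructokinase, fell from 439 ± 113 to 159 ± 28.7 CPM (-1.47 ± 0.23), Ckb, the brain-type creatine kinase of early myotubes, from 89.5 ± 5.93 to 11.3 ± 1.81 (-3.00 ± 0.13), and the glycogen synthase gene Gys1 by 1.28 ± 0.16. In the list of the hypoxia response, 12 of 25 genes were lower and 3 higher, with the oxygen sensor gene Egln3 at -1.93 ± 0.18 and Pfkp at -1.09 ± 0.21. Of 32 nuclear genes of the respiratory chain 2 were lower and 0 higher, both of them muscle isoforms of cytochrome oxidase subunits, Cox6a2 (-1.66 ± 0.31, adjusted p = 0.022) and Cox8b (-1.53 ± 0.57, adjusted p = 0.0182). Neither was called without KO replicate 1 (adjusted p = 0.0521 and 0.0664), KO replicate 4 (0.0784 and 0.0708) or WT replicate 5 (0.052 and 0.0982). All KO libraries lay below all WT libraries for 4 of the 32 genes and above them for 0, beside 16.7% and 16.9% of all genes. Further members, not named here, were called lower in edgeR's fit restricted to day 6 (adjusted p = 0.0194 and 0.0425). Transcripts of the mitochondrial chromosome took 3.17% ± 0.298 of counts in WT and 5.24% ± 0.884 in the KO, without overlap (exact p = 0.0286). Of its 10 tested genes, 3 were called higher, beside 14.5% of all genes. Among them was mt-Co1 at 15766 ± 2214 and 23675 ± 4128 CPM (0.59 ± 0.16, adjusted p = 0.0393), with mt-Cytb and mt-Nd2. The mt-Co1 call was lost with DESeq2 size factors (adjusted p = 0.0609), with no filter (0.103) and without any 1 of KO replicates 3, 4 and 5 and WT replicates 1, 3 and 4 (0.0611 to 0.133). Of the 10 genes 0 were called without KO replicate 3, 6 without KO replicate 1, 1 without any 1 of KO replicates 4 and 5 and WT replicates 1 and 3, and 2 without WT replicate 4.

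Lipid genes were called in both directions. Ppargc1a, the coactivator PGC-1 alpha, was at 6.79, 9.11, 6.59 and 4.10 CPM in WT and had 0 counts in all KO libraries, at least 91.7-fold lower (45.8-fold if mates were counted separately). Pdk4, which spares glucose by blocking pyruvate dehydrogenase, rose from 39.5 ± 13.7 to 445 ± 192 CPM (3.50 ± 0.39), Lpl, lipoprotein lipase, from 71.8 ± 14.9 to 611 ± 34.6 (3.09 ± 0.16), and Plin2, which coats lipid droplets, from 156 ± 57.1 to 714 ± 224 (2.19 ± 0.36). The fatty acid carriers Fabp3 and Cd36 fell by 2.91 ± 0.33 and 2.76 ± 0.56. The list of PGC-1 and fatty acid genes had 8 of 22 higher and 4 lower. Sterol synthesis and desaturase genes were lower in 11 of 23 cases and higher in 0 (median -0.92). Dhcr7, the last enzyme of cholesterol synthesis, was at 129, 199, 124 and 217 CPM in WT and 22.9, 31.5, 25.2 and 40.9 in the KO (-2.47 ± 0.28, adjusted p = 5.17e-06). The desaturases Scd1 and Scd2 fell by 2.03 ± 0.46 and 1.55 ± 0.34.

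Few genes of the ribosome were called. Of 36 cytosolic ribosome genes 1 was higher and 0 lower (median 0.09), Rpl3 at 0.83 ± 0.28 with overlapping groups (adjusted p = 0.0449). DESeq2 did not call Rpl3 (adjusted p = 0.0536). Its call was lost without any 1 of KO replicates 3, 4 and 5 and WT replicates 1, 3 and 4 (adjusted p = 0.054 to 0.18). Of 14 muscle splicing regulators 4 were lower and 0 higher, where 14.4% of all genes were called lower and 14.5% higher. The 4 were Rbfox1, Rbm24, Rbm38 and Srpk3, down by 2.97 ± 0.48, 1.72 ± 0.42, 2.20 ± 0.22 and 1.95 ± 0.46.

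Markers of other mesenchymal cells were also called, and their part in the matrix results was not tested. Marker sums, here and for the reserve cell list, are in CPM of the raw library totals. Of 11 tested fibroblast markers 5 were higher and 4 lower, with the PDGF receptors Pdgfra and Pdgfrb up by 1.68 ± 0.23 and 3.65 ± 0.91, and the summed level of the 16 overlapped (451 to 1216 CPM in WT, 710 to 1037 in KO). Ly6a alone was at 127 to 757 CPM in WT and 85.0 to 189 in the KO, and the other 15 summed to 324 to 459 CPM in WT and 625 to 847 in the KO, without overlap. Ly6a was set apart after its values were seen, so the sum of the 15 describes a selected set. Of the 16, Fap, Tcf21, Thy1 and Twist1 had no count in any of the 8 libraries. Of the adipocyte markers 2 of 4 tested were higher and 1 lower, and their sum was 14.5 to 26.4 CPM in WT and 82.3 to 96.8 in KO. That gain came with Cebpa, an adipogenic factor (1.43 ± 0.998 to 70.7 ± 7.46 CPM; 5.53 ± 0.41), whereas Pparg was lower (15.8 ± 5.31 to 8.05 ± 2.57) and Cfd, Cidec, Lep and Plin1 had no count. The cartilage and bone markers summed to 43.4 to 51.3 CPM in WT and 126 to 132 in KO, with 4 of 7 tested higher and 1 lower, Sox9 at 1.38 ± 0.10 and no count of Acan, Ibsp or Sp7. Of the smooth muscle and pericyte markers 3 of 7 tested were higher and 2 lower, and their sums overlapped (113 to 168 and 140 to 208 CPM). Neural and Schwann markers summed to 101 to 284 CPM in WT and 47.0 to 66.9 in KO, with 4 of 10 lower and 1 higher. The endothelial and blood markers summed to at most 5.07 CPM in any library.

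The differences at day 6 were next set beside those of the same lines on day 4 and in growth medium on day 0, with other libraries. Of the genes called higher at day 6, 1508 (75.5%) were also called higher at day 4, which is 82.4% of the 1830 called then, and 446 (22.3%) were called higher at day 0, where 890 were (6.46% of those tested). Of the genes called lower, 1620 (81.7%) were lower at day 4 and 637 (32.1%) at day 0, where 9.09% of all genes were. A further 51 genes higher and 34 genes lower at day 6 were called in the opposite direction at day 0. The share of genes called was 27.5% at day 4 and 15.5% at day 0. The test of the difference itself, genotype by day, called 0 genes between days 4 and 6 (edgeR and DESeq2 alike). In edgeR 158 genes (1.15%) had an unadjusted p under 0.05, fewer than evenly spread p-values would give. The 0 calls therefore do not show that the days are alike. Between days 0 and 6 the test called 1371 genes (9.95% of those tested, 814 or 5.91% toward higher in the KO and 557 or 4.04% toward lower). One WT library of day 0, replicate 4, stood apart from its group. Without it and KO day 1 replicate 3 the counts were 1222 and 1146, and leaving out 1 library of days 0 and 6 at a time gave 567 to 910 and 416 to 792.

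Genes with a genotype difference that changed from day 0 to day 6 included members of both matrix and muscle groups. Col6a1 fell in WT cells from 75.7 CPM ± 94.5 on day 0 to 2.26 ± 1.99 on day 6 and was at 526 ± 347 and 547 ± 146 in the KO. The change of the Col6a1 difference was 5.06 ± 1.25 (adjusted p = 0.000539). Mef2c rose in WT from 15.4 ± 7.16 to 613 ± 97.6 CPM and in KO from 5.69 ± 2.37 to 13.5 ± 8.30 (change of -4.06, adjusted p = 0.000123). Vcam1 was lower in the KO at day 0 and higher at day 6 (change of 4.84, adjusted p = 6.335e-08), and Arhgef6, a Rac and Cdc42 exchange factor, the reverse (change of -5.91; 86.6 ± 20.8 and 6.07 ± 0.756 CPM at day 6). Among the largest changes toward higher were also those of the chemokine Cxcl5 (8.84) and the cytokine receptor subunit Csf2rb (6.35). Toward lower they included Adamtsl2 (-7.01), Dhrs7c (-7.14) and Slc26a7 (-6.90). Dhrs7c lost its call without KO day 0 replicate 4 (-2.64, adjusted p = 0.932), and Slc26a7 without KO day 0 replicate 1 (-5.95, adjusted p = 0.0684). For Xirp1, Mymk and Mylpf the difference on day 0 was -2.80, -2.08 and -2.28, and its change of 0.17, 0.02 and -0.02 was not called.

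Differences were not even along the genome. Apart from the mitochondrial one, median log2 differences of the tested genes of a chromosome ran from -0.34 on chromosome 13 to 0.46 on chromosome 16, and on day 0 they were -0.34 and 0.45. Chromosome 4 stood at 0.30 and chromosome 3 at -0.32 (0.32 and -0.40 at day 0). On chromosome 16, 30.4% of 431 genes were called higher and 9.74% lower, and on chromosome 3, 10.0% of 688 higher and 25.4% lower, against 14.5% and 14.4% of all genes. Among genes of at least 10 CPM in both groups the medians were 0.51 for chromosome 16, 0.29 for chromosome 4, -0.30 for chromosome 13 and -0.37 for chromosome 3. Genes named above lie on these chromosomes as well. Among them are Mef2c and Actn2 on chromosome 13, Casq2 on chromosome 3, and Id3, Agrn and Adamtsl1 on chromosome 4. Their log2 differences at day 6, in that order, were -5.50, -6.86, -3.74, 6.84, 1.46 and -6.13. How far a chromosome's median bears on any 1 gene was not tested.

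**Figure D5:**
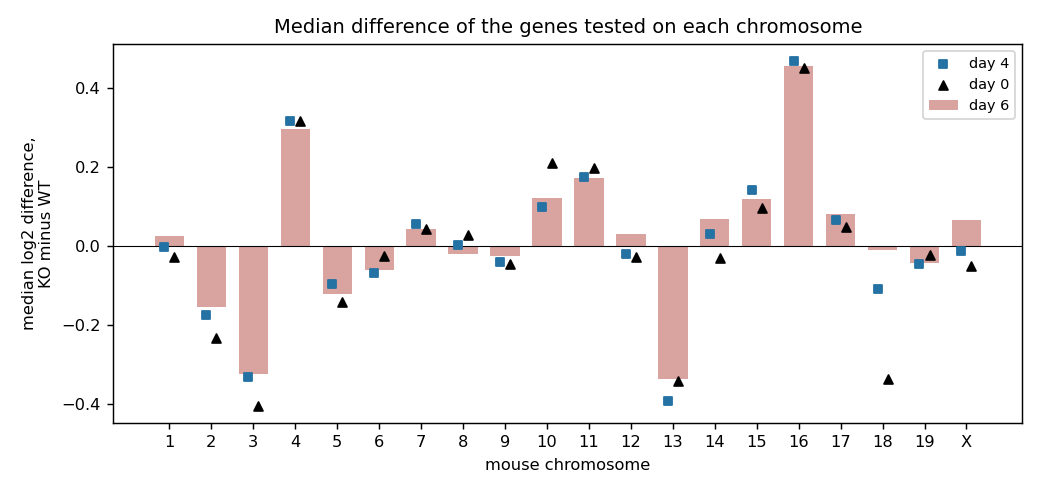
Median log2 difference between KO and WT (vertical) over the tested genes of each mouse chromosome (horizontal): bars are day 6, squares day 4 and triangles day 0. Chromosomes 3, 4, 13 and 16 stand at -0.32, 0.30, -0.34 and 0.46 at day 6 and nearly as far from 0 on the other days.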

How the data were processed

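RNA was measured by poly(A) RNA-seq (TruSeq Stranded mRNA, NextSeq, per the labels' protocols) in 39 libraries of 2 genotypes over 5 days, of which the 8 of day 6 carry the comparison. The deposited table holds raw counts per gene. Per the submitters' processing notes, the authors used FastQC 0.11.9, STAR 2.7.9, featureCounts 2.0.3 and DESeq2, and the notes list GRCm38. The strand setting of the counting is not given in the sources used here, so reads of overlapping or antisense genes may be mixed. All 29980 gene IDs matched GENCODE M21. A further 1 column of values that matches no sample was not used.

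With edgeR 4.0.16 under R 4.3.3 (TMM, filterByExpr by group, robust quasi-likelihood), the counts entered 1 model of 10 group means over the 39 libraries, 29 residual degrees of freedom. Day 6, 4 and 0 contrasts and genotype by day contrasts were tested, with Benjamini-Hochberg adjustment over all 13780 genes. SEs use a prior count of 2, which makes them smaller for genes near 0 counts in a group. With a prior count of 0.5 the SE of Kcnj15 was 1.08 instead of 0.64, and that of Nkd2 1.60 instead of 1.19. Floors are 3 counts over a group, and the intervals are exact at 95%, covering counting error only. The scripts were tested on simulated data. Promoters were those of RefSeq (GRCm38.p6), and 10509 of 13780 genes matched.

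Genes named were the 12 with the largest log2 differences in each direction (called, at least 5 CPM, no overlap), the 10 called genes with the largest differences in mean CPM in each direction, up to 4 members of each list with the smallest p and at least 1 CPM, 25 genes of a set list and the 6 largest changes in each direction per genotype by day contrast (called, at least 5 CPM). Actb, Bgn, Bmp4, Cacna1s, Cd36, Cdh15, Chrna1, Chrnd, Chrng, Col1a1, Col3a1, Dcn, Des, Hgf, Ldb3, Lpl, Myl1, Nrap, Ryr3, Six4, Smad6, Synpo2l and Tnnt3 were named after their values were seen. The gene lists, named genes and tests were chosen with earlier results of these data known. Alternatives were DESeq2 1.42.0, its size factors, no filter, halved counts, the day 6 libraries alone, a replicate block, glmTreat, and leaving out libraries. The CArG box and MEF2 site searched were added as patterns after the data were seen. A few genes that the rule names are not reported here.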

Additional observations from a re-analysis of the deposited data

Results flagged for a closer look

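In groups of 4 libraries, a library was singled out where its gap to the nearest of the others, divided by the range of the group, passed Dixon's 95% critical value for 4 values. For normally distributed values this happens in about 1 in 20 groups, and 31 of the 366 groups of the genes given here met it. Where all others of a group have 0 counts, any count in the remaining library meets it, so that rate does not apply there. WT replicate 1 was the highest of its group, in CPM, for Ogn (1023). WT replicate 3 was the highest of its group, in CPM, for Gsta3 (0.157). WT replicate 4 was the highest of its group, in CPM, for Actg2 (10.6), Cebpa (2.92), Col15a1 (0.127), Kcnj16 (0.127), Mgp (162), Myl9 (56.0) and Actb (752). WT replicate 5 was the highest of its group, in CPM, for Tnnt2 (2336) and Tnnt3 (2776). KO replicate 1 was the highest of its group, in CPM, for Ccnd2 (10.3), Mest (0.278), Nog (0.278), Rspo2 (62.8), Slc26a7 (1.11), Chrna1 (1179) and Dcn (53.0). KO replicate 4 was the highest of its group, in CPM, for Chmp4c (0.133) and Itm2a (0.133). KO replicate 5 was the highest of its group, in CPM, for Atp6v1c2 (0.327) and Il15 (0.327). WT replicate 4 was the lowest of its group, in CPM, for Col1a2 (53.4) and Sox9 (34.4). WT replicate 5 was the lowest of its group, in CPM, for Cdkn1a (3329) and Vgll2 (7.00). KO replicate 1 was the lowest of its group, in CPM, for Cntn3 (17.2) and Col6a1 (328). KO replicate 3 was the lowest of its group, in CPM, for Sqstm1 (1331). KO replicate 4 was the lowest of its group, in CPM, for Myh1 (143) and Mymk (251). The others of the group had 0 counts for Atp6v1c2, Chmp4c, Il15, Itm2a, Mest, Nog and Slc26a7 in the KO and for Col15a1, Gsta3 and Kcnj16 in the WT. The share of counts of the mitosis list was also highest apart in 1 WT library, at 0.0260%.

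For 75 of the genes given here, the KO minus WT log2 difference itself differed between day 0 and day 6 in edgeR's genotype by day test at an adjusted p under 0.05. The values below are the day 6 difference minus the day 0 difference, and 4 libraries stand behind each mean. It changed toward higher in the KO most for Inmt (17.67), Cxcl5 (8.84), Col15a1 (7.10), Csf2rb (6.35), Id3 (5.44), Col6a1 (5.06), Kcnj16 (5.01), Vcam1 (4.84), Col6a2 (4.53), Kcnj15 (4.47), Serpine2 (4.46) and Bgn (3.98). Further changes toward higher were those of Cxcl12 (3.92), Cebpa (3.76), Id2 (3.73), Inhbb (3.65), Igfbp5 (3.55), Col6a3 (3.41), Col12a1 (3.27), Hgf (3.05), Plin2 (3.00), Pdgfrb (2.97), Id1 (2.94) and Mgp (2.87). Changes toward higher of a smaller size were those of Gas1 (2.75), Lpl (2.74), Cxcr4 (2.57), Pdk4 (2.40), Myl9 (2.39), Fbxo32 (2.30), Dock5 (2.24), Tcf7l2 (2.21), Flna (2.18), Thbs2 (2.03), Actg1 (2.01) and Sntb2 (1.98). The rest of the changes toward higher were those of Mylk2 (1.84), Mmp14 (1.80), Chrnd (1.75), Sox9 (1.75), Actb (1.38), Six4 (1.32), Cald1 (1.20), Myod1 (1.00) and Gabarapl1 (0.77). The value of Inmt rests on 0 counts in a group and is a fitted number, not a size. It changed toward lower in the KO most for Mboat2 (-9.48), Dhrs7c (-7.14), Adamtsl2 (-7.01), Slc26a7 (-6.90), Arhgef6 (-5.91), Tmem117 (-4.77), Adamtsl1 (-4.59), Actn2 (-4.57), Mef2c (-4.06), Vgll2 (-3.93), Fst (-3.06) and Dhcr7 (-2.90). Further changes toward lower were those of Tnnt2 (-2.89), Hspb2 (-2.75), Itga6 (-2.56), Cd34 (-2.32), Vgll3 (-2.24), Pfkm (-2.18), Rrm2 (-1.92), Ldb3 (-1.79), Egln3 (-1.78), Nrap (-1.75), Cdh2 (-1.69) and Fabp3 (-1.51). Changes toward lower of a smaller size were those of Tpm2 (-1.51), Rbm38 (-1.47), Ccnd3 (-1.28), Ncam1 (-1.26), Gys1 (-0.93) and Cd81 (-0.90). The value of Mboat2 also rests on 0 counts in a group. Calls lost without at least 1 single library of days 0 and 6 were those of Actn2, Ccnd3, Cd34, Cd81, Col12a1, Dhrs7c, Fabp3, Gabarapl1, Gys1, Mylk2, Myod1, Ncam1, Nrap, Pdgfrb, Six4, Slc26a7, Tcf7l2 and Tmem117, with a highest adjusted p of 0.0518 to 0.932, that of Dhrs7c being without KO day 0 replicate 4.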

How the results depend on the processing

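Of 231 named genes 206 were called at day 6, and 191 of these kept their call in all 16 settings other than glmTreat. Against a 1.5-fold change glmTreat called 989 genes higher and 1127 lower at day 6, and 405 and 281 for the change from day 0. Without 1 library at a time the day 6 counts were 1529 to 1757 higher and 1619 to 1871 lower. For the change from day 4 they were 0 to 0 and 0 to 1 (1 lower gene without WT day 6 replicate 1), and for the change from day 0, 567 to 910 and 416 to 792. Without the 2 libraries that stand apart, WT day 0 replicate 4 and KO day 1 replicate 3, the change from day 0 was called for 1222 genes toward higher and 1146 toward lower. For that change DESeq2 called 887 genes toward lower. With the replicate block over all libraries 852 genes were called toward lower for the change from day 0, and at day 6 the block gave 2308 higher and 2311 lower, or 2321 and 2460 in the day 6 libraries alone. The labels do not say whether the replicate numbers pair the samples, and the main fit used no block. Correlations of same-numbered WT and KO libraries' deviations were 0.07, -0.02, 0.09 and 0.18, and those of other pairs -0.14 to 0.08. These values do not settle it. Cd68, not called (log2 difference -0.43), ranged from -0.73 without WT replicate 1 to 0.31 without WT replicate 4. Of the 38 sarcomere promoters, 36.8% held CAGCTG, where 84.2% held CANNTG. The cause of these differences was not tested, except that leaving out a library leaves fewer samples. The depth limits genes of few counts, where folds are given as bounds or with counting intervals.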
